A study of Mus musculus with 2 samples.

Results

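The regions described here were promoter peaks called in the proximal but not in the distal femur of the mouse embryo. Growth zones from the proximal and distal femur ends of E15.5 embryos of strain FVBNJ were profiled with ATAC-seq, in which the Tn5 transposase cuts and tags accessible DNA. Each end was dissected free of soft tissue, pooled over the litter (8 animals on average), digested to single cells with collagenase and profiled from 50000 cells. The tissue was labelled chondrocytes, although the dissected zones also held perichondrium, and the animals of both ends were untreated embryos of the same strain. The data comprised 1 list of peak positions for each end, combined over 2 biological replicates and passed at an irreproducible discovery rate (IDR) of 0.05, with neither peak heights nor read counts.

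The members were selected on the measured peak positions: proximal peaks that overlapped no distal peak by even 1 bp and whose nearest edge was no more than 1 kb from a start site in the GENCODE annotation. They numbered 668 of the 28257 proximal peaks. Of all proximal peaks, 4559 overlapped no distal peak (16.1%), and of the 12786 proximal promoter peaks the 668 members made up 5.22%. The same rule applied to the distal list gave 1011 of 13159 promoter peaks (7.68%). Absence from the distal list shows that no peak passed the threshold there, and says nothing about the height of the signal. The members were counted once each, and no test across replicates was possible because each end had a single list. Intervals on shares are 95% Wilson intervals and those on differences are Newcombe intervals; they cover counting error alone, and neighbouring or co-annotated peaks are not independent replicates.

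A promoter is the stretch of DNA around a start site on which general transcription factors and RNA polymerase assemble. Mammalian promoters fall broadly into CpG-rich promoters, which are accessible in many tissues, and CpG-poor promoters, whose use is more often restricted to particular cell types. Many genes have several start sites, and an alternative start site inside a gene can give a shorter or noncoding transcript. AP-1 factors are dimers of Fos, Jun and related proteins that bind the sequence TGAGTCA, mostly at enhancers.

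The members differed widely in base composition, and stretches of 120 bases from 10 of them, chosen for their sequence, are given as examples. The first set is shown for its AP-1 sequences, which are in capitals on whichever strand they occur (TGAGTCA or its reverse complement TGACTCA). It was taken from members at the main start sites of Cd68 (chr11:69666256-69666375, minus strand) and Atp6v0d2 (chr4:19922614-19922733, minus strand), and at other start sites of Lgr6 (chr1:135022149-135022268, minus strand), Rora (chr9:69195112-69195231, plus strand) and Hsp90aa1 (chr12:110703286-110703405, minus strand). Every stretch is written 5′ to 3′ on the strand of its gene, lies outside annotated untranslated regions, and comes from the RefSeq copy of the GRCm38.p6 assembly (mm10).
Cd68: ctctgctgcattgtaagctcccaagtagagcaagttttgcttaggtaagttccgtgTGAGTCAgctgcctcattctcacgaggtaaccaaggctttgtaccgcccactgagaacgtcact
Atp6v0d2: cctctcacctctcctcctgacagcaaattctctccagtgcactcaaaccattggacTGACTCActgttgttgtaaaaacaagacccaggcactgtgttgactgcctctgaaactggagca
Lgr6: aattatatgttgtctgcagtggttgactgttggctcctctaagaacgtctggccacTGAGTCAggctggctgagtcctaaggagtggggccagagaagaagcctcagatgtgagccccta
Rora: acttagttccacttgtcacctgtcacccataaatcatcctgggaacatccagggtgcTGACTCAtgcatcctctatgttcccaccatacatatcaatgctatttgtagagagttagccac
Hsp90aa1: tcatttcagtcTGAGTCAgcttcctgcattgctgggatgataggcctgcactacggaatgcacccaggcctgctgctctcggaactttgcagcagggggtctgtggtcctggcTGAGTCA

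The second set is shown for its CpG content, with each CG in capitals. Its stretches came from members at the main start sites of Pitx1 (chr13:55831446-55831565, minus strand), Pbx2 (chr17:34592082-34592201, plus strand), Dvl1 (chr4:155847271-155847390, plus strand) and Irx5 (chr8:92357392-92357511, plus strand), and from an alternative start site of Casz1 (chr4:148900967-148901086, plus strand).
Pitx1: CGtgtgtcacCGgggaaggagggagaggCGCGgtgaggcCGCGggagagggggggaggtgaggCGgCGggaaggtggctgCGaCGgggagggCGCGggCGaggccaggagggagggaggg
Pbx2: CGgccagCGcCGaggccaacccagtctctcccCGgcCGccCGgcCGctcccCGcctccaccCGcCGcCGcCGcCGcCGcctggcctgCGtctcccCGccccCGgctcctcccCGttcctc
Dvl1: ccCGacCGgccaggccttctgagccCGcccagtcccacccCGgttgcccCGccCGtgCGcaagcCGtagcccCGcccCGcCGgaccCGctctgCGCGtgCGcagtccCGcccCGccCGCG
Irx5: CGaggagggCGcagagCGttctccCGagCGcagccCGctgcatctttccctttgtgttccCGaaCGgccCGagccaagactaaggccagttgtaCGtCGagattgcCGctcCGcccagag
Casz1: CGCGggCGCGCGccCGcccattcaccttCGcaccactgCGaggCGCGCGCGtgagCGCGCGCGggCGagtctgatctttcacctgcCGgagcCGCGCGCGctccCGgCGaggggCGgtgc
The stretches of the first set held 0 to 4 CpG dinucleotides, and those of the second set held 13 to 25 and no AP-1 sequence. These counts follow from the choice of stretches. Each stretch of the first set had to hold an AP-1 sequence. In the second set each was the stretch of its member with the most CpG dinucleotides outside untranslated regions.

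CpG content separated the members from other promoter peaks. A peak was counted as CpG-rich where the 500 bp around its centre had at least 50% GC and an observed over expected CpG ratio of at least 0.6. This held for 186 of the 668 members (27.8%, interval 24.6% to 31.4%). Among the 12118 proximal promoter peaks that overlapped a distal peak, called shared here, the share was 76.4%, a member-minus-shared difference of -48.5 percentage points (interval -51.9 to -44.9). The distal-only promoter peaks stood between them at 48.6%, a difference of -20.7 points (interval -25.2 to -16.1). The median observed over expected CpG ratio was 0.335 in the members, with quartiles of 0.208 and 0.688, against 0.787 in shared and 0.590 in distal-only promoter peaks. Proximal-only peaks more than 3 kb from any start site had a median of 0.198, and 0.453% of these 3530 peaks were CpG-rich. The members therefore lay between those remote peaks and the shared promoters on this measure, with a dense group of low CpG and a smaller group of high CpG.

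**Figure D1:**
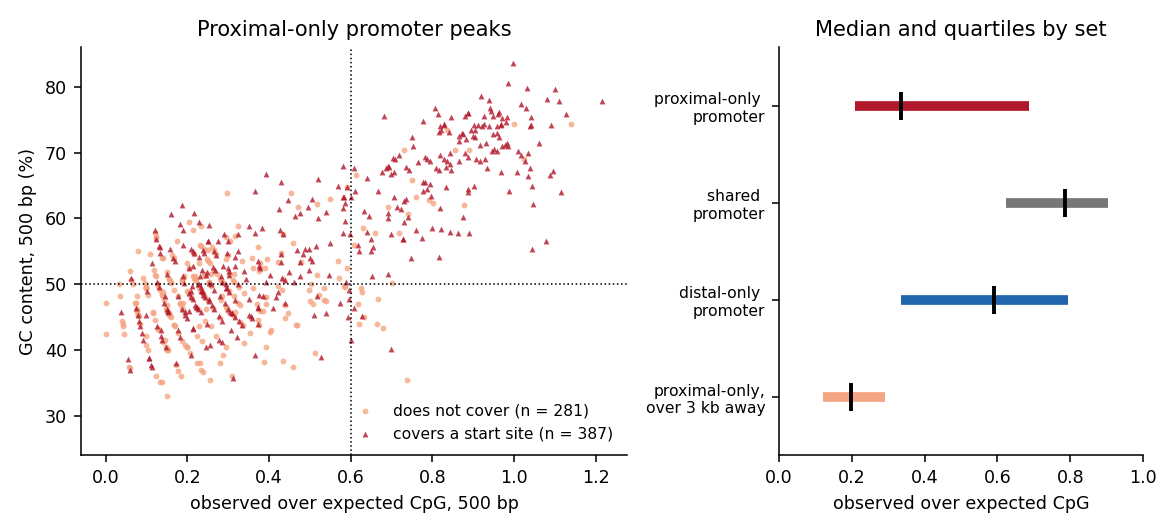
Left, GC content against the observed over expected CpG ratio in the 500 bp around the centre of each of the 668 members (triangles cover a start site, circles do not; dotted lines mark 50% GC and a ratio of 0.6). Right, median (black mark) and quartiles (bar) of the ratio in 4 sets of peaks, with the members at a median of 0.335, below shared promoters at 0.787 and above remote proximal-only peaks at 0.198.

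The AP-1 sequence showed the opposite order. It was found in the central 200 bp of 138 members (20.7%, interval 17.8% to 23.9%), on either strand. Shared promoter peaks held it in 4.61% (difference 16.0 points, interval 13.1 to 19.3) and distal-only promoter peaks in 8.80% (difference 11.9 points, interval 8.39 to 15.46). Remote proximal-only peaks held it in 35.0%. Of the 138 members with the sequence, 136 were not CpG-rich. Within peaks that were not CpG-rich, it was present in 28.2% of members (136 of 482, interval 24.4% to 32.4%), in 14.6% of shared and in 15.4% of distal-only promoter peaks. In CpG-rich peaks it was present in 2 of 186 members, 1.53% of shared and 1.83% of distal-only promoter peaks.

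Of the other sequences searched on both strands of the same window, 4 were rarer and 2 more frequent in members than in shared promoter peaks, each with an interval of the difference that excluded 0. The GC box GGGCGG, bound by Sp-family factors, occurred in 24.4% of members, 52.6% of shared and 40.5% of distal-only promoter peaks. The ETS sequence CCGGAAG occurred in 3.59%, 10.8% and 4.45% of the same sets, and the difference from distal-only peaks had an interval that included 0 (-2.72 to 1.17 points). The RUNX sequence ACCACA was present in 15.3% of members, above 7.24% of shared and 8.21% of distal-only promoter peaks and below 22.2% of remote proximal-only peaks. The TATA box letters TATAAA were present in 6.89% of members, 2.51% of shared and 3.86% of distal-only promoter peaks. The CCAAT box CCAAT occurred in 19.6% of members and 23.1% of shared promoter peaks (difference -3.50 points, interval -6.44 to -0.237), and the E-box CACGTG in 3.59% and 5.55% (difference -1.96 points, interval -3.20 to -0.218). For both, the interval of the difference from distal-only promoter peaks included 0. A match of letters is a description of the sequence and does not show that a factor was bound.

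**Figure D2:**
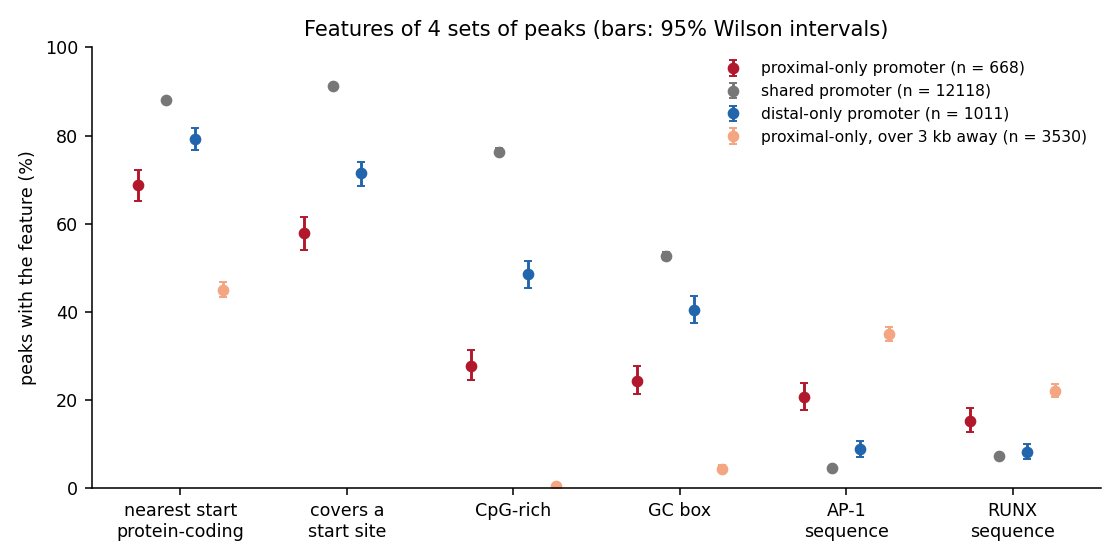
Share of peaks (percent, points) with each of 6 features in 4 sets of peaks, with 95% Wilson intervals as bars; coverage of a start site is left out for remote peaks, which were defined by their distance. The members were lower than both other promoter sets in protein-coding starts (68.7%), start-site coverage (57.9%), CpG-rich sequence (27.8%) and GC boxes (24.4%), and higher than both in AP-1 (20.7%) and RUNX sequences (15.3%).

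Most members covered a start site, but fewer than in the other promoter sets. A start site lay inside 387 members (57.9%), against 91.1% of shared and 71.4% of distal-only promoter peaks. A further 146 members lay upstream and 135 downstream of the nearest start. The members outside the start site were spread nearly evenly, with 74, 63, 62 and 82 peaks in the successive 250 bp steps up to 1 kb. In the next 250 bp step, beyond the limit, there were 52 proximal-only peaks. The centre of a member lay in an intron in 40.9% of cases, outside genes in 140 members, in an untranslated region in 17.1%, in a noncoding exon in 13.0% and in a coding exon in 8.08%. In shared promoter peaks the intron share was 21.9% and the untranslated region share was 36.7%. In distal-only promoter peaks these shares were 33.7% and 25.0%. Members were also narrower, with a median width of 545.5 bp (range 207 to 2043 bp) against 926 bp in shared and 581 bp in distal-only promoter peaks.

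The sequence differences were also counted within peaks of like position or like width, each restriction alone. Position and width as causes were not tested. Among the 387 members that covered a start site, 42.9% were CpG-rich and 12.1% held the AP-1 sequence, against 80.9% and 3.03% of shared peaks that covered a start (differences of -38.0 points, interval -42.9 to -33.0, and 9.11 points, interval 6.20 to 12.8). Distal-only promoter peaks that covered a start were CpG-rich in 59.0% and held the AP-1 sequence in 5.12%. The member-minus-distal-only differences were -16.1 points (interval -22.1 to -9.95) and 7.02 points (interval 3.59 to 10.9). Among peaks at least 400 and under 800 bp wide, 26.3% of 430 members and 63.1% of 3804 shared promoter peaks were CpG-rich. The AP-1 sequence was held by 22.1% and 8.75% of them. Of 628 distal-only promoter peaks of that width, 50.3% were CpG-rich and 8.28% held the AP-1 sequence. These restrictions were chosen after the data had been seen.

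**Figure D3:**
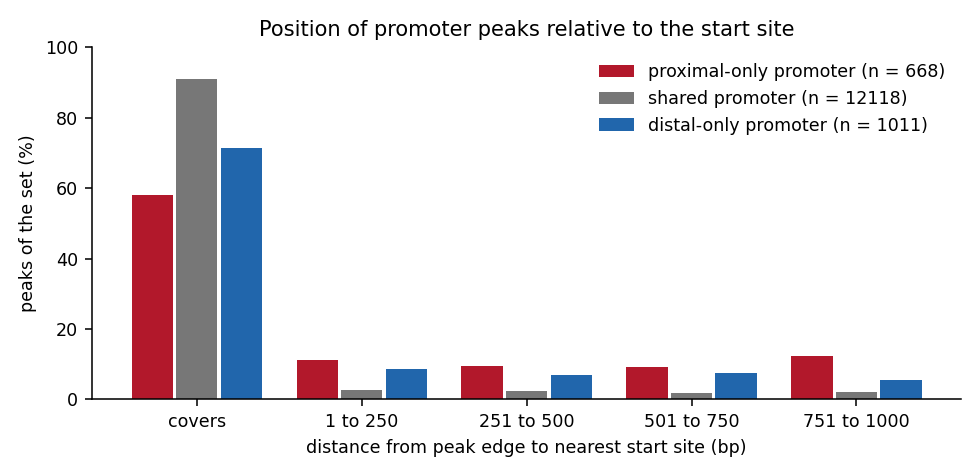
Share of promoter peaks (percent of each set, bars) by the distance in bp from the peak's nearest edge to the nearest start site, for 668 members, 12118 shared and 1011 distal-only promoter peaks. The first group covers a start site and holds 57.9% of members, 91.1% of shared and 71.4% of distal-only peaks.

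At the edges of the selection, the members nearest the 1 kb limit were those of Dpysl3 (1000 bp from the start), Fbxw25 (998 bp) and Pcmtd1 (995 bp). The proximal-only peaks just outside it belonged to 2 unnamed gene models, at 1002 and 1003 bp, and to Rfx6 at 1005 bp. The distance to the nearest distal peak had a median of 18968.5 bp and ran from 40 bp, at Zfp738, to 596965 bp. The member at C87436 lay 53 bp from a distal peak. In all, 69 members had a distal peak within 1 kb and 8 had one within 100 bp. The nearest start site of 56 members (8.38%) itself had a distal peak within 1 kb, so for these the start was near a peak in both lists. On the other side of the rule, the shared promoter peak with the least overlap was at Spop, with 32 bp.

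The nearest start site belonged to a protein-coding gene for 459 members (68.7%, interval 65.1% to 72.1%). This share was 88.0% for shared promoter peaks (difference -19.3 points, interval -23.0 to -15.9) and 79.2% for distal-only ones (difference -10.5 points, interval -14.8 to -6.23). Long noncoding RNA starts took 122 members (18.3%), against 7.67% and 13.4%. They included 76 lincRNA and 28 antisense starts, among them those of Mannr, Wincr1, Pvt1 and Parvaos. Pseudogene starts took 42 members (6.29%), of which 38 were processed pseudogenes such as Rpl21-ps7 and Fkbp1a-ps2. Another 20 members were nearest a small RNA gene, including 5 miRNA genes, and 19 were nearest a gene model labelled as still to be tested by experiment. The remaining 6 lay at variable segments of T-cell receptor loci, namely Trav9d-1, Trav10n, Trav4n-3, Trav4-4-dv10, Trdv1 and Trbv1. Rules for naming genes excluded clone-based symbols, and the noncoding examples were picked after their values had been seen.

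Members at protein-coding starts differed from those at the other starts. They covered the start in 65.6% of cases and were CpG-rich in 35.7%, with the AP-1 sequence in 17.0%. At long noncoding RNA starts the corresponding shares were 51.6%, 13.9% and 26.2%. At pseudogene starts 8 of 42 members covered the start, 3 were CpG-rich and 16 held the AP-1 sequence. None of the 6 members at T-cell receptor segments was CpG-rich or held the AP-1 sequence. Median widths ran from 417 bp at T-cell receptor segments to 558 bp at protein-coding starts.

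A member could lie near the starts of several genes, and 759 pairs of a member and a gene covered 750 genes. Among the 20807 autosomal protein-coding genes, 494 had a member (2.37%). Start sites of 2 or more genes lay within 1 kb of 12.0% of members, against 25.9% of shared promoter peaks. In distal-only promoter peaks the share was 14.9%, and the interval of the member-minus-distal-only difference included 0 (-6.20 to 0.425 points). The main start of a gene was taken as that of its principal coding transcript in the annotation. Of the 503 pairs with a protein-coding gene, 315 lay at the main start (62.6%, interval 58.3% to 66.7%) and 188 at another start. Shared promoter peaks were at the main start in 87.0% of pairs (difference -24.3 points, interval -28.7 to -20.2) and distal-only ones in 69.1% (difference -6.52 points, interval -11.8 to -1.34).

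The 188 pairs at other starts were mostly inside the gene. Their start lay downstream of the main start in 84.6% of cases, against 53.6% for shared and 73.7% for distal-only promoter peaks at other starts. The distance to the main start had a median of 22218 bp (range 324 to 1268734 bp). A coding transcript began at that start in 44.1% of these pairs (interval 37.2% to 51.3%), against 71.8% for shared and 59.6% for distal-only peaks. The annotated transcript was thus more often a noncoding one such as a retained intron. In 114 of the 188 pairs (60.6%) the gene had a shared peak at its main start. For shared and distal-only promoter peaks at other starts, the gene had another, shared peak at the main start in 45.6% and 48.5% of pairs.

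Members at main and other starts were unlike each other in sequence. Of the pairs at a main start, 55.6% were CpG-rich, against 12.2% at other starts (difference 43.3 points, interval 35.6 to 49.997). The AP-1 sequence was present in 8.25% at main starts and 30.3% at other starts (difference -22.1 points, interval -29.4 to -15.0). A start of the gene was covered in 75.9% and 43.1% of pairs, and the median width was 585 bp and 490 bp. The gene had another, shared promoter peak in 21.6% of pairs at main starts and 70.7% at other starts. This last contrast follows in part from the definitions. Shared promoter peaks were at the main start in 87.0% of their pairs. A member at a main start takes up that position, and a member elsewhere leaves it free.

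**Figure D4:**
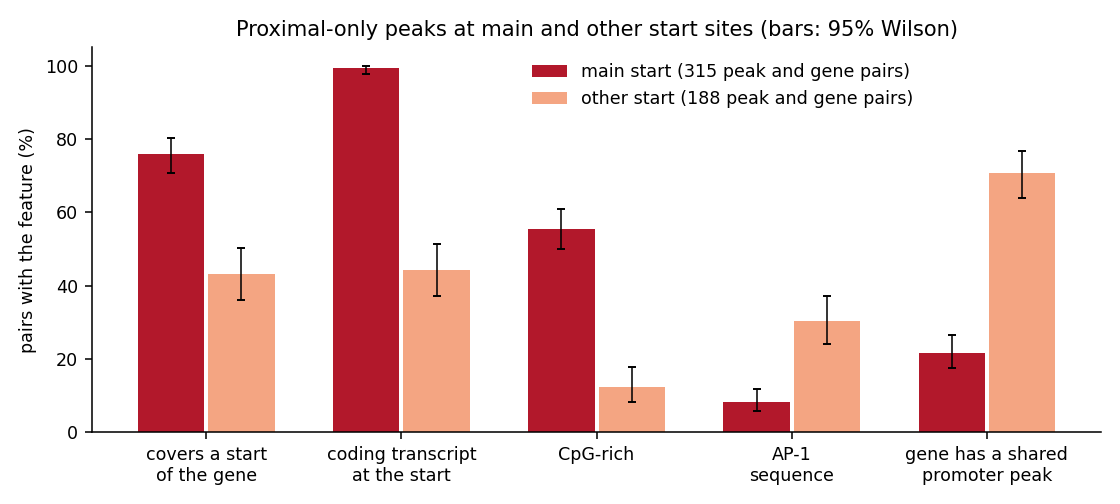
Share of member and gene pairs (percent, bars with 95% Wilson intervals) with each of 5 features, for 315 pairs at the main start of a protein-coding gene and 188 pairs at another start. Main-start pairs were more often CpG-rich (55.6% against 12.2%) and other-start pairs more often held the AP-1 sequence (30.3% against 8.25%). Other-start pairs also more often belonged to a gene with a shared promoter peak (70.7% against 21.6%), which follows in part from the definitions.

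Of the 494 protein-coding genes, 198 (40.1%, interval 35.9% to 44.5%) also had a promoter peak shared by both femur ends. Among the 857 genes with a distal-only promoter peak this share was 31.5%. Of all autosomal protein-coding genes, 54.9% had a shared promoter peak. That figure also counts genes whose sole promoter peak was shared, so it is not a like comparison. With basic-tagged transcripts alone, which leave out most partial and noncoding ones, the shares were 22.6% of 358 genes with a member (interval 18.6% to 27.2%) and 20.5% of 711 genes with a distal-only promoter peak (interval 17.7% to 23.7%), and these intervals overlapped. The most frequent class, with 234 genes (47.4%), had a member at the main start and neither a shared nor a distal-only promoter peak. Sart3, Iscu, Ildr1 and Fam198b of this class had a second member. Over the class the gap from the member to the nearest distal peak had a median of 23105 bp and exceeded 10 kb in 173 genes. A member at another start beside a shared peak was found in 131 genes (26.5%), and a member at the main start beside a shared peak in 67 (13.6%). In 44 genes, of which Lgr6 and Ttyh1 had 2 members, members lay at another start and the gene had neither a shared nor a distal-only promoter peak. The remaining genes had a distal-only peak but no shared one, with the member at the main start in 10 and elsewhere in 8. Of the 152 long noncoding RNA genes, 121 had the member at the main start without a shared or distal-only promoter peak, and 19 had a shared promoter peak.

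**Figure D5:**
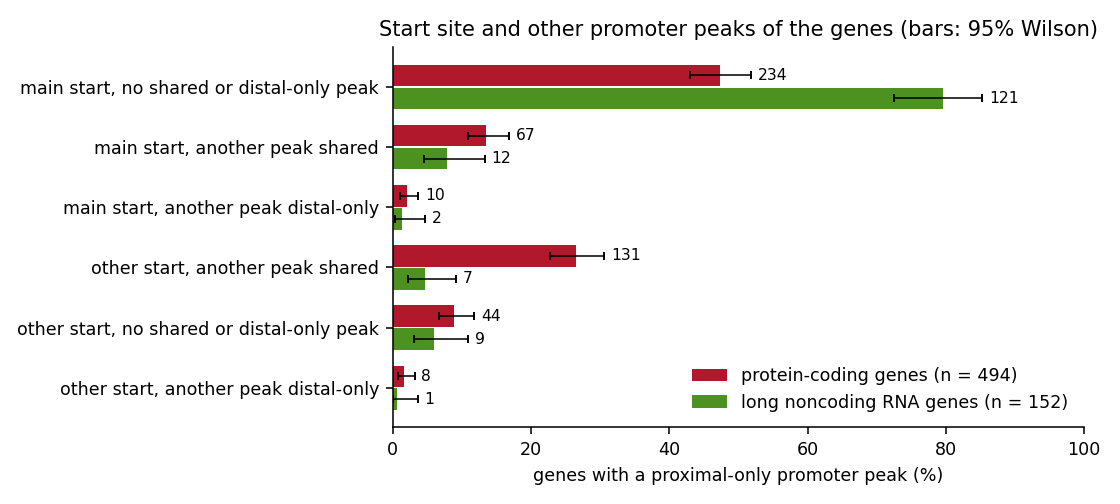
Share of genes with a member (percent, bars with 95% Wilson intervals, number of genes beside each bar) by the start at which the member lay and the gene's other promoter peaks, for 494 protein-coding and 152 long noncoding RNA genes. A member at the main start without a shared or distal-only promoter peak was the most frequent class in both kinds, with 234 and 121 genes.

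The widest members were listed among those at the main start of a protein-coding gene without a shared or distal-only promoter peak. In the 12 widest of these the width ran from 1173 to 2043 bp, 9 were CpG-rich and none held the AP-1 sequence. Over all 238 member and gene pairs of this class, 57.1% were CpG-rich and 7.98% held the AP-1 sequence. The widest, at 2043 bp, lay at Prkce, which encodes a protein kinase C isoform (chr17:86166476-86168518), 4234 bp from the nearest distal peak. Members of 1751 bp at Dennd1b, an exchange factor for Rab proteins, 1619 bp at the zinc finger gene Patz1 and 1301 bp at the nuclear receptor coactivator gene Ncoa1 were all CpG-rich, with the nearest distal peak 18767, 22209 and 70803 bp away. Cd14, a co-receptor for bacterial lipopolysaccharide, and the cytokine gene Il15 had members of 1410 and 1380 bp. The gap at Il15 was 370157 bp. Tmem30b (1325 bp), a lipid flippase subunit, and Slc35d3 (1312 bp) had CpG ratios of 0.984 and 0.874. Genes known from nerve and muscle cells were also in this group, with members of 1288 bp at Chrm2, a muscarinic acetylcholine receptor, and 1251 bp at Kcnc2, a voltage-gated potassium channel. Ch25h, a cholesterol hydroxylase, completed the named genes at 1173 bp.

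A further group held members at alternative starts of genes with a shared peak at the main start. In the 12 widest of these the width ran from 775 to 1611 bp, 4 members were CpG-rich and 2 held the AP-1 sequence. A coding transcript began at the start of 6 of them. Over all 188 pairs at other starts these shares were 12.2%, 30.3% and 44.1%. The member at Kctd1 was 1611 bp wide and lay at a start 87828 bp upstream of the main start. At Rnf114, a ubiquitin ligase gene, a CpG-rich member of 1233 bp covered a start 10444 bp downstream of the main start. Casz1, a zinc finger transcription factor gene, had a CpG-rich member of 775 bp at a coding start 96720 bp into the gene, shown above by sequence. Jarid2, a component of the Polycomb complex, had a CpG-rich member of 778 bp at a noncoding start 2769 bp downstream. The members at Rora, a nuclear receptor gene (788 bp), and Pcmtd1 (807 bp) were CpG-poor, with ratios of 0.205 and 0.149, and held the AP-1 sequence. Arhgap18 (1056 bp), Wdr60 (1027 bp), Ptpra (1019 bp), Itpr1 (997 bp), BC034090 (822 bp) and Ttc39b (783 bp) made up the rest.

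Limb patterning genes had members at 8 of 44 genes of a fixed list, against 2.37% of all autosomal protein-coding genes. A shared promoter peak was present at 21 of the 44 and a distal-only one at 2. Because the list was drawn up with earlier results of these data known, its count is a description. Pitx1, the homeodomain factor that specifies hindlimb identity, had a 455 bp member over its main start (chr13:55831122-55831576) and no other promoter peak, and the nearest distal peak was 91989 bp away. Its surroundings were CpG-rich, with 73.2% GC. The Pbx and Meis genes encode homeodomain partners that act together with Hox proteins. Pbx2 had a 643 bp member and Meis3 a 585 bp member, both over CpG-rich main starts with no other promoter peak, 4086 and 31629 bp from a distal peak. Pbx4 instead had a shared peak at the main start and a 518 bp member near the start of a noncoding transcript further into the gene, 15548 bp downstream.

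Hoxa10, a posterior Hox gene with a role in patterning the femur, had an 862 bp member covering a start 5856 bp upstream of its main start, and no other promoter peak. Irx5, an Iroquois homeobox gene, had a 584 bp member over its main start, while a shared peak 727 bp away lay outside the 1 kb limit of the main start and near its other start. Lhx9, a LIM-homeodomain gene of the limb bud, had a 777 bp member 323 bp from a start close to its main start, and its shared promoter peak was 6014 bp away. Thus 4 of the 8 genes, Pitx1, Pbx2, Meis3 and Hoxa10, had a member as their sole promoter peak.

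Cartilage and skeletal gene lists held 0 to 2 genes with a member each, to be read against 2.37% of all autosomal protein-coding genes. Distal-only promoter peaks were present at 3 growth plate regulators, 2 joint genes, 1 tendon and fibrous tissue gene and 1 osteoblast gene. None of the 13 chondrocyte markers, among them Col2a1, Acan and Sox9, had a member, and 9 had a shared promoter peak, 3 a distal-only one and Matn1 none. Among 32 growth plate regulators, Sox5 and Trps1 had members. Sox5, which acts with Sox9 in cartilage, had a 784 bp member over its main start (chr6:144209046-144209829), without another promoter peak and 42220 bp from a distal peak. Its sequence was not CpG-rich, with a ratio of 0.232. Trps1, a GATA-type zinc finger gene, had a 457 bp member near a start 6885 bp downstream of its main start, and a distal-only peak of 388 bp near the main start. Of 20 joint genes only Has2, a hyaluronan synthase, had a member, of 453 bp, with a distal peak 875 bp away. The tendon factor gene Mkx, 1 of 22 tendon and fibrous tissue genes, had a 559 bp member over a CpG-rich main start with a distal peak 2405 bp away. Among 16 osteoblast genes, Spp1, which encodes osteopontin, had a 484 bp member and no other promoter peak, and Col1a2, an alpha chain of type I collagen, had a 335 bp member 508 bp from a start, 222 bp from a shared peak at the same main start.

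Signalling lists held 1 to 3 genes with a member each, to be read against the same 2.37%, and most of these members lay at CpG-rich main starts. Distal-only promoter peaks were present at 5 BMP and TGF-beta, 5 WNT, 6 FGF and receptor tyrosine kinase and 3 Notch genes. Of all autosomal protein-coding genes, 4.12% had a distal-only promoter peak. Among 41 BMP and TGF-beta genes the activin antagonist gene Fst had a 387 bp member, with no other promoter peak and the nearest distal peak 69771 bp away. In the WNT list, 2 of 58 genes had members. The cytoplasmic signal transducer gene Dvl1 had a 715 bp member over its CpG-rich main start, and the R-spondin receptor gene Lgr6 had members of 493 and 477 bp near internal starts, 87497 and 83185 bp downstream of the main start, both with the AP-1 sequence. Of 45 FGF and receptor tyrosine kinase genes, Pdgfa had a 372 bp member as its sole promoter peak. Fgfrl1, an FGF receptor-like gene, and Spry1, an FGF antagonist gene, each had a member beside a shared peak at the same main start, 76 and 289 bp away. Maml3, a Notch coactivator gene, was the single member gene of 24 Notch genes, with a 440 bp peak 1404 bp from a distal peak. No member lay at the 28 AP-1 and ATF genes, where a share of 2.37% would be less than 1 gene, and 26 of them had a shared promoter peak.

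Markers of other cell types were checked in the same way, to be read against the same 2.37% of all autosomal protein-coding genes. The lists were short, so these small counts are descriptions only. Myf6, a myogenic factor gene, was the single member gene of 35 muscle genes, with an 804 bp peak 784 bp from its start and 103180 bp from a distal peak. Cd68, a macrophage marker, was the single one of 31 blood genes, and Atp6v0d2, a proton pump subunit gene of osteoclasts, the single one of 10 osteoclast genes. Both had the AP-1 sequence within narrow members of 429 and 396 bp over their main starts. No member lay at the 20 endothelial, 17 nerve and glia or 12 epidermal genes. Distal-only promoter peaks were present at 3 of the muscle, 1 of the blood and 2 of the osteoclast genes. They were also present at 1 of the endothelial, 2 of the nerve and glia and 1 of the epidermal genes. Neither list had a promoter peak at 27 of the muscle, 25 of the blood or 14 of the endothelial genes. The part of such cells in these peaks was not tested. None of the 28 ribosomal and housekeeping genes had a member, and 24 had a shared promoter peak.

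Gene families grouped by symbol were set against the 2.37% of all autosomal protein-coding genes. Solute carriers had a member at 14 of 372 genes (3.76%), with an interval of 2.25% to 6.22% that included this share. Members were found at 4 of 385 zinc finger protein genes (1.04%, interval 0.405% to 2.64%) and 4 of 1128 olfactory receptor genes (0.355%, interval 0.138% to 0.908%). The zinc finger interval also included 2.37%, while the olfactory receptor interval lay below it. Among the olfactory receptors 2 genes had a shared and 0 a distal-only promoter peak. A single 615 bp member accounted for the histone genes Hist2h2ab, Hist2h2ac and Hist2h2be, which stand together and had a shared peak at their main starts 231 bp away. Of the 22 matrix metalloproteinase genes, 2 had a member (9.09%, interval 2.53% to 27.8%). A distal-only promoter peak was present at 5 of the 22 (22.7%), against 4.12% of all autosomal protein-coding genes. The genes with a member, Mmp3 and Mmp28, had it over their main starts with no other promoter peak. The Mmp3 member, of 671 bp, held the AP-1 sequence and lay 106363 bp from a distal peak.

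Genes with 2 members were Fap, Sart3, Pcnx, Ildr1, Iscu, Fam198b, Ttyh1, Bicdl1 and Lgr6. Sart3 and Iscu are neighbours on opposite strands and shared the same pair of CpG-rich members of 935 and 403 bp, with the nearest distal peak 27296 bp away. Both members of Ttyh1 lay at internal starts, and both of Fam198b at the main start. Members within 20 kb of each other formed 10 pairs and no larger group. The share of proximal promoter peaks that were members ran from 3.84% on chromosomes 8 and 16 to 6.85% on chromosome 1.

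A further 23 protein-coding genes had a member and also a distal-only promoter peak, so that the 2 lists marked different positions of the same gene. At Prlr, the prolactin receptor gene, a distal-only peak of 750 bp covered the main start, and a 310 bp member covered a coding start 136447 bp downstream. At Bbc3, a cell death regulator gene, the distal-only peak of 609 bp covered the main start, while a shared peak and a 391 bp member lay near a start 3901 bp downstream. At Cnppd1 and Retreg2, divergent neighbours, a 951 bp CpG-rich member covered the main starts of both genes and a distal peak stood 361 bp away. At Slc4a10 the member covered the main start with a distal peak 683 bp away, and at Gpsm1 the gap was 21091 bp. At Pcdh7 the distal-only peak covered the main start. The Pcdh7 member lay 381 bp from that start and 185 bp from the distal peak. Of the 23 genes, 10 had the member at the main start. Among the 23 member and gene pairs, 7 were CpG-rich and 1, at Nav1, held the AP-1 sequence. The member of Cnppd1 and Retreg2 is counted in 2 of these pairs. The other genes were Pdcd4, Ptprj, Cdk2ap1, Apba2, Rbpms, Lmo7, Trps1, Rcc2, Elovl6, Lhfpl2, Tmc8, Kctd16, Prkg1, Scn1a and Gm973.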

How the data were processed

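ATAC-seq libraries of the proximal and distal femur were compared as 1 group each. The authors aligned reads to mm10, removed duplicates, called peaks on each end and kept those with an IDR below 0.05. The submitters' processing notes name Bowtie2 2.2.8 and MACS2 2.1.1. The deposited files hold peak positions alone (chromosome, start and end, without score, height or read count), so the depth behind each peak is unknown. Only chromosomes 1 to 19 occur in the lists. Positions were converted to 1-based coordinates and compared in Python 3.11.15 (pysam 0.24.0, SciPy 1.17.1) with GENCODE release M21 start sites of all transcripts.

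The main start was that of the transcript with the best APPRIS principal tag, then the best transcript support level, then the longest. GC and CpG were read in 500 bp and 7 motifs in 200 bp around the peak centre. Interval and motif code was tested on simulated intervals. No test across replicates was possible with 1 list per end, so shares are given with 95% intervals. IDR, peak width and the filter on duplicates all affect which weak peaks enter a list, so a peak missing from the distal list may have stood just below its threshold there.

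Named genes were every gene of 18 lists with a member, the 12 widest members at main starts of genes without a shared or distal-only promoter peak, the 12 widest at another start beside a shared main-start peak, genes with 2 or more members, genes that also had a distal-only promoter peak, and members at the edges of the selection. Clone-based symbols were counted and, with few exceptions, not named. A few genes that met these rules are not reported here. The members and the lists were chosen with earlier results of these data known. Genes of 29 families were grouped by symbol. No per-sample column was left out.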

Additional observations from a re-analysis of the deposited data

How the results depend on the processing

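Of the 22 alternatives to the 6 main values, 14 stayed within 1.5 times the count or within the 95% interval of the share. The number of members was 387 when the peak had to cover a start site, and ran from 477 (protein-coding starts) to 850 (reciprocal overlap of 50%) in the other alternatives. In each of them members were a smaller share of proximal promoter peaks than distal-only peaks were of distal ones. The share of members at protein-coding starts was 60.9% with basic transcripts and 77.8% in members that covered a start. The share of protein-coding genes with another, shared promoter peak was 33.5% with a limit of 500 bp and 22.6% with basic transcripts, so this value depends on the annotation. CpG-rich sequence was present in 42.9% of members that covered a start. Searched over the whole peak, the AP-1 sequence was found in 32.2% of members, 15.0% of shared and 17.0% of distal-only promoter peaks. In the central 200 bp it was found in 12.1% of members that covered a start. The restrictions to members that cover a start, to members at least 400 and under 800 bp wide and to members with no distal peak within 1 kb were chosen after seeing the data. No paired analysis was possible because each list combines its replicates, and for the same reason no replicate could be left out. Without peak heights or read counts, a peak just below the threshold in the distal femur could not be told apart from an inaccessible site.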
